A study of Homo sapiens with 7 samples.

Results

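A total of 42 genes of the Wnt pathway were followed in 7 lines of HT1080 fibrosarcoma cells: 6 ligands, 8 Frizzled receptors, 6 other receptors, 3 Dishevelled proteins, 4 secreted or membrane antagonists, 3 proteins of the destruction complex, 5 nuclear factors and 7 feedback inhibitors or targets. The genes were chosen by symbol in the annotation of the array's probes, and 41 of the 42 had a probe, out of 20045 genes with a probe in all. TCF7 was not matched to a probe. Where a gene had several probes, the brightest on average over the 7 arrays, on the non-normalized signal, stood for it.

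HT1080 is a human fibrosarcoma line of mesenchymal origin that is highly invasive in culture. PTK7 is a catalytically inert receptor tyrosine kinase that takes part in planar cell polarity and in Wnt signaling, and membrane type-1 matrix metalloproteinase (MT1-MMP), ADAM proteases and γ-secretase cut it into fragments. The lines compared were shPTK7 cells, in which PTK7 was silenced by shRNA and which were a pool of 3 clones, PTK7 cells, which were transfected with the full-length protein, Chz cells, which carried the Chuzhoi mutant with an additional MT1-MMP cleavage site, sPTK7 cells with the soluble N-terminal ectodomain, and cPTK7/726-1070 and cPTK7/622-1070 cells with C-terminal fragments named by their residues. The control was HT1080 cells, which the study calls parental and the sample labels describe as transfected with a scrambled control. The 6 derived lines were stable transfectants, all cells were grown for 72 h, and each line was measured on 1 Illumina HumanHT-12 v4 array of the same chip, so no difference between lines could be tested and the single HT1080 array entered all 6 comparisons with it.

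Secreted Wnt ligands bind Frizzled receptors. With the co-receptors LRP5 and LRP6 they act through Dishevelled to stop the destruction complex of Axin, APC and GSK3B from marking β-catenin for degradation, and β-catenin then enters the nucleus and switches on target genes with TCF/LEF factors. With ROR or RYK receptors, other Wnt proteins signal without β-catenin to the cytoskeleton and to cell polarity. Secreted antagonists bind the ligands or the co-receptors, and several targets, among them AXIN2, ZNRF3 and RNF43, feed back to restrain the pathway.

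Signals are given as background-corrected, quantile-normalized intensities in array units. They can be set between lines for 1 gene but not between genes. A probe was detected on an array when its detection p value, the share of negative control probes at least as bright, was under 0.05. A difference of at least 2-fold between 2 arrays, with the brighter of them detected, is named a call. Each array has a floor, the smallest signal among its detected probes (53.8 to 60.9), and anything dimmer was set to it before a fold was taken, so that a fold against an undetected signal is a lower bound. No fold is given where both arrays were undetected, or where the detected signal lay under the other array's floor. In these bulk RNA samples, fewer cells that express a gene and less RNA per cell cannot be told apart.

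Between 19045 and 20515 of 47230 probes were detected per array. The brighter of 2 probes of PTK7 itself gave 27.7 in shPTK7, 112 in PTK7, 137 in Chz, 30.3 in sPTK7, 39.1 in cPTK7/622-1070, 32.9 in cPTK7/726-1070 and 104 in HT1080 cells, and it was not detected in shPTK7 and sPTK7 cells nor in either line with a C-terminal fragment. The dimmer probe was detected in Chz (69.1) and HT1080 cells (57.1) and not in PTK7 cells (38.8) or the other 4 lines. The arrays thus did not show a raised PTK7 RNA level in the line labelled PTK7, at 112 against 104 in HT1080 cells on the brighter probe. Where the probes lie relative to the constructs was not examined here, so they check neither the full-length nor the truncated constructs. The study's immunoblots, of protein and not RNA, found PTK7 silenced in shPTK7 cells and the tagged PTK7, sPTK7 and Chz constructs at comparable levels. They also showed the cPTK7/622-1070 construct, partly cut. Of 14 mesenchymal markers 6 to 10 were detected on an array, VIM at 43630 to 57034, while COL1A2, THY1 and LUM were detected on none. Of 12 epithelial markers 2 or 3 were detected on an array. KRT8 (1366 to 3125) and KRT18 (413 to 742) were detected on every array and CDH1 on none. Of 7 leukocyte and blood markers with a probe 1 or 2 were detected on an array. CD14 and LYZ were detected in every line but Chz (60.4 to 118), and PTPRC in none. Of 5 endothelial markers at most 1 was detected on an array.

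Of the 41 Wnt pathway genes with a probe, 33 were detected on at least 1 array (80.5%, against 67.7% of all genes with a probe), 22 on all 7 and 11 on some. WNT11, ROR2, DVL1, APCDD1, TCF7L1, RNF43, NKD1 and NKD2 were detected on no array. Over HT1080 cells, 9 of the genes were called in at least 1 line: the ligand WNT5A, the receptors FZD3 and FZD8, the antagonists SFRP1, DKK1 and DKK3, and the targets AXIN2, ZNRF3 and TNFRSF19. They were 27.3% of the 33 detected genes of the list, against 13.1% of all genes detected on at least 1 array. The 9 genes gave 24 calls over the 6 lines, 22 of them lower than HT1080 cells and 2 higher. All these calls were taken against the single HT1080 array. With the median of the 7 arrays in its place there were 6 lower and 6 higher calls. They were all in PTK7 cells (4 lower, 2 higher) and Chz cells (2 lower, 4 higher). That median comes from the same arrays and absorbs a difference shared by most lines. Whether the split comes from the HT1080 array was not tested. Over HT1080 cells, both higher calls, of WNT5A and FZD8, were in Chz cells.

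**Figure D1:**
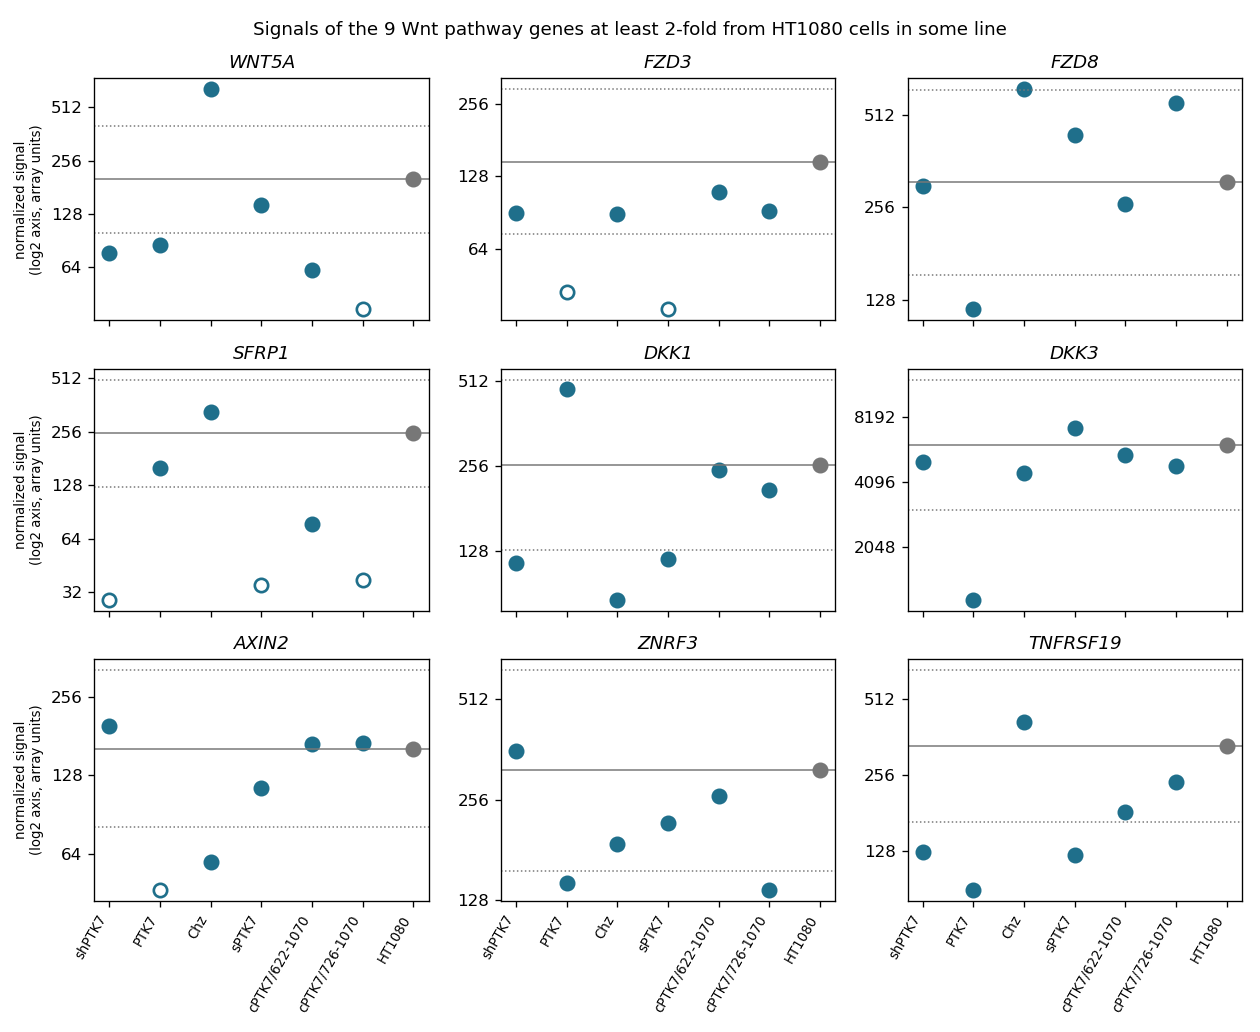
Normalized signal (log2 axis, array units) of the 9 called genes in each line, 1 array per line. Filled points were detected and open points were not. The solid line marks the HT1080 signal and the dotted lines 2-fold above and below it. WNT5A lies above its upper line in Chz cells, at 647 against 201 in HT1080 cells, and DKK3 lies below its lower line only in PTK7 cells, at 1166 against 6092.

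WNT5A, a ligand known mainly for signaling without β-catenin, had the widest range of all the genes followed. Its signal was 77.6 in shPTK7, 85.8 in PTK7, 647 in Chz, 144 in sPTK7, 62.2 in cPTK7/622-1070, 37.0 (not detected) in cPTK7/726-1070 and 201 in HT1080 cells. Chz cells stood above HT1080 cells and the other 5 lines below them. WNT5A was 3.23-fold higher in Chz cells (log2 fold 1.69). It was 2.59-fold lower in shPTK7 cells, 2.34-fold lower in PTK7 cells, 3.23-fold lower in cPTK7/622-1070 cells and at least 3.34-fold lower in cPTK7/726-1070 cells. The sPTK7 signal, though below that of HT1080 cells, was not called.

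WNT7B, a ligand of the β-catenin branch, was detected in all lines by its brighter probe, which was highest in cells with C-terminal fragments. It gave 109 in shPTK7, 99.3 in PTK7, 154 in Chz, 106 in sPTK7, 242 in cPTK7/622-1070, 299.7 in cPTK7/726-1070 and 153 in HT1080 cells. The cPTK7/726-1070 signal was 1.96-fold above HT1080 cells, just short of a call, and the cPTK7/622-1070 signal 1.58-fold above them. A second, dimmer WNT7B probe was detected on 3 arrays only, at 68.5 in cPTK7/622-1070, 99.0 in cPTK7/726-1070 and 72.6 in HT1080 cells (log2 folds -0.08 and 0.45), and so did not show cPTK7/622-1070 above HT1080 cells. WNT10B, which also acts through β-catenin, gave 104 in shPTK7, 137 in PTK7, 54.5 in Chz, 133 in sPTK7, 56.6 in cPTK7/622-1070, 56.1 in cPTK7/726-1070 and 95.8 in HT1080 cells. It was not detected in Chz cells nor in either line with a C-terminal fragment, and no line was called over HT1080 cells.

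WNT3 was detected on 6 arrays, between 94.8 and 118, and not in cPTK7/726-1070 cells (50.4), at least 1.74-fold under HT1080 cells (104). WNT5B, the close relative of WNT5A, was detected in shPTK7 (99.6), cPTK7/726-1070 (65.4) and HT1080 cells (60.3) only. Neither gene was called in any line.

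Among the Frizzled receptors, FZD8 moved most. Its signal was 300.4 in shPTK7, 119 in PTK7, 619 in Chz, 439 in sPTK7, 262 in cPTK7/622-1070, 558 in cPTK7/726-1070 and 309 in HT1080 cells. PTK7 cells had the lowest and Chz cells the highest signal. FZD8 was 2.60-fold lower in PTK7 cells and just past 2-fold higher in Chz cells (log2 fold 1.00), while cPTK7/726-1070 cells, 1.81-fold higher, stayed outside it.

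FZD3, a receptor known from planar cell polarity in mice, gave 90.4 in shPTK7, 42.2 in PTK7, 89.4 in Chz, 35.8 in sPTK7, 110.2 in cPTK7/622-1070, 91.7 in cPTK7/726-1070 and 147 in HT1080 cells. It was not detected in PTK7 and sPTK7 cells, and every line lay below HT1080 cells. It was at least 2.42-fold lower in PTK7 cells and at least 2.47-fold lower in sPTK7 cells. FZD6, which shares that role with FZD3 in mice, gave 579 in shPTK7, 371 in PTK7, 829 in Chz, 767 in sPTK7, 465 in cPTK7/622-1070, 399 in cPTK7/726-1070 and 631 in HT1080 cells, with no call over HT1080 cells.

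The other 5 Frizzled genes were detected on all 7 arrays and stayed within 2-fold over them. FZD2 lay between 846 and 1502, FZD1 between 146 and 237, FZD4 between 289 and 469.6, FZD5 between 61.5 and 105 and FZD7 between 179.7 and 299. The probes of FZD7 disagreed: the one used differed by 0.25 in shPTK7 and -0.48 in Chz cells over HT1080 cells on the log2 scale. A dimmer second probe differed by 0.66 in Chz cells and by -0.93 or lower in shPTK7 cells, where it was undetected (44.1).

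No co-receptor or other receptor was called in any line over HT1080 cells. RYK, a Wnt receptor with an inert kinase domain like that of PTK7, had the narrowest range of the detected genes on the probe used, 4684 to 5864 (1.25-fold). Dimmer RYK probes, also detected on all 7 arrays, ranged more widely, from 1134 to 1967 and from 568 to 1224. The latter differed by a log2 fold of -0.72 in cPTK7/726-1070 over HT1080 cells. LRP5 lay between 231 in sPTK7 and 434 in PTK7 cells (1.88-fold), and was 1.75-fold lower in sPTK7 than in HT1080 cells. LRP6 was detected on 6 arrays, up to 96.6, and not in shPTK7 cells. ROR1, a receptor that binds WNT5A, was detected at 62.0 to 99.4 on 6 arrays and not in cPTK7/726-1070 cells. LGR4, a receptor of R-spondins, was detected only in shPTK7 (74.2) and Chz cells (66.8).

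The cytoplasmic steps of the pathway varied little as well. Dishevelled proteins relay the receptor signal, and DVL2 ran between 421 and 649 and DVL3 between 781 and 1281 over the 7 arrays. In the destruction complex, the scaffold AXIN1 ran between 750.0 and 1139.6 and the kinase GSK3B between 5144 and 7244. The scaffold APC was detected in cPTK7/622-1070 cells (72.5) and nowhere else. Of the nuclear factors, LEF1 ran between 580.2 and 853, TCF7L2 between 108 and 198 and CTNNBIP1, which keeps β-catenin from TCF, between 312 and 479. None of the genes in this paragraph was called in any line.

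**Figure D2:**
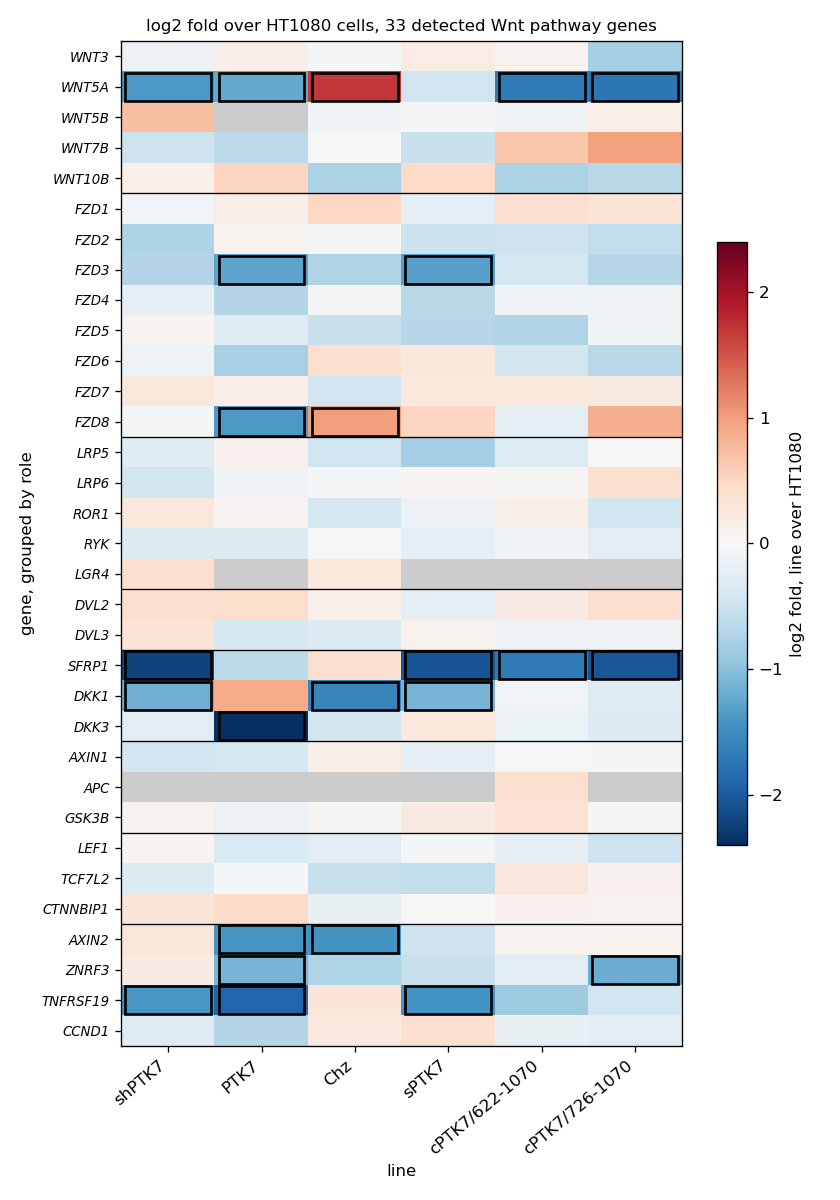
Log2 fold of each line over HT1080 cells for the 33 genes detected on at least 1 array (rows, grouped by role with black lines between groups), with 6 lines as columns. Red is higher and blue lower than in HT1080 cells, grey marks pairs without a fold, and black frames mark the 24 calls. The frames lie in the rows of 9 genes and are blue in 22 of the 24 cases.

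The secreted antagonists held 8 of the 22 lower calls. SFRP1, which binds Wnt proteins outside the cell, gave 29.0 in shPTK7, 159.6 in PTK7, 328 in Chz, 35.3 in sPTK7, 77.8 in cPTK7/622-1070, 37.4 in cPTK7/726-1070 and 250.5 in HT1080 cells. It was not detected in shPTK7, sPTK7 and cPTK7/726-1070 cells, and Chz cells alone stood above HT1080 cells. SFRP1 was at least 4.65-fold lower in shPTK7 cells, at least 4.21-fold lower in sPTK7 cells, 3.22-fold lower in cPTK7/622-1070 cells and at least 4.16-fold lower in cPTK7/726-1070 cells.

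DKK1, which blocks Wnt signaling by binding LRP6 and is itself a target of β-catenin, gave 116 in shPTK7, 479 in PTK7, 85.6 in Chz, 119 in sPTK7, 247 in cPTK7/622-1070, 209 in cPTK7/726-1070 and 258 in HT1080 cells. PTK7 cells stood above HT1080 cells and the other 5 lines below them. DKK1 was 2.22-fold lower in shPTK7 cells, 3.01-fold lower in Chz cells and 2.18-fold lower in sPTK7 cells. Its signal in PTK7 cells, 1.85 times that of HT1080 cells, was not called. A second DKK1 probe was detected on no array.

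DKK3, a divergent Dickkopf protein, was far above the floor on every array. It gave 5054 in shPTK7, 1166 in PTK7, 4487 in Chz, 7271 in sPTK7, 5465 in cPTK7/622-1070, 4845 in cPTK7/726-1070 and 6092 in HT1080 cells. PTK7 cells lay apart from the other 6 arrays, whose lowest signal was 4487. DKK3 was 5.23-fold lower in PTK7 than in HT1080 cells (log2 fold -2.39). A second probe, also detected on all 7 arrays, gave -2.77 in PTK7, -0.89 in cPTK7/726-1070 and -0.73 in shPTK7 cells. The probe used gave -0.33 and -0.27 in the last 2. The study names DKK3 among the genes lower in cPTK7/726-1070 cells, where neither of these probes reached 2-fold. Another, much dimmer probe was undetected in PTK7 cells alone (35.1, against 97.1 in HT1080 cells), which bounds its log2 fold at -0.67 or lower, and differed by -0.80 in shPTK7 cells (55.8).

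Among the feedback inhibitors and targets, AXIN2, the Axin paralog widely read as a target of β-catenin, gave 198 in shPTK7, 46.6 in PTK7, 59.9 in Chz, 115 in sPTK7, 169 in cPTK7/622-1070, 171 in cPTK7/726-1070 and 162 in HT1080 cells. It was not detected in PTK7 cells and was low in Chz cells. AXIN2 was at least 2.66-fold lower in PTK7 cells and 2.70-fold lower in Chz cells.

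ZNRF3, a ubiquitin ligase that removes Frizzled receptors from the cell surface, gave 357 in shPTK7, 144 in PTK7, 189 in Chz, 217 in sPTK7, 263 in cPTK7/622-1070, 137 in cPTK7/726-1070 and 313 in HT1080 cells. Only shPTK7 cells stood above HT1080 cells. ZNRF3 was 2.17-fold lower in PTK7 cells and 2.29-fold lower in cPTK7/726-1070 cells.

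TNFRSF19, a receptor of the tumor necrosis factor family reported as a target of β-catenin, gave 127 in shPTK7, 89.5 in PTK7, 414 in Chz, 123 in sPTK7, 183 in cPTK7/622-1070, 240.4 in cPTK7/726-1070 and 334 in HT1080 cells. Chz cells alone stood above HT1080 cells. TNFRSF19 was 2.62-fold lower in shPTK7 cells, 3.73-fold lower in PTK7 cells and 2.72-fold lower in sPTK7 cells. The other probes of TNFRSF19 were detected on no array. CCND1, the cyclin that drives entry into S phase, gave 23352 in shPTK7, 17721 in PTK7, 33772 in Chz, 37679 in sPTK7, 25705 in cPTK7/622-1070, 24186 in cPTK7/726-1070 and 28859.7 in HT1080 cells. It was not called in any line, with its largest difference in PTK7 cells (1.63-fold lower).

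Of the 9 called genes, WNT5A, FZD8, DKK1 and TNFRSF19 were matched by symbol to promoter windows, with 6 windows of 250 bases before to 50 bases after a transcription start (RefSeq, GRCh38.p14). They are printed to show the sequence upstream of the genes that differed between lines, 5′ to 3′ on the gene's strand and in lower case, with capitals at a match to the TCF/LEF words CTTTGAA or CTTTGAT on either strand.
WNT5A, chr3:55487257-55487556, minus strand: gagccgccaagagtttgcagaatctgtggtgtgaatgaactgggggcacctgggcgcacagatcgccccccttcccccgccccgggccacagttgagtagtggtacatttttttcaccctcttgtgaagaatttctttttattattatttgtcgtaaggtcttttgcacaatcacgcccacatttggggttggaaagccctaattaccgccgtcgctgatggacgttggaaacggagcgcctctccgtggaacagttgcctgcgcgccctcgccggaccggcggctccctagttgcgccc
WNT5A, chr3:55481349-55481648, minus strand: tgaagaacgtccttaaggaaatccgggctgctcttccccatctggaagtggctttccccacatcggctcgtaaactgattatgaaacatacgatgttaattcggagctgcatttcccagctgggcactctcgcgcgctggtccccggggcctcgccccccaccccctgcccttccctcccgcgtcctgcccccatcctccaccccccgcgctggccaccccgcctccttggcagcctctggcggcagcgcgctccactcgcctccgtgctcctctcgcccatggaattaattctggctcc
FZD8, chr10:35642247-35642546, minus strand: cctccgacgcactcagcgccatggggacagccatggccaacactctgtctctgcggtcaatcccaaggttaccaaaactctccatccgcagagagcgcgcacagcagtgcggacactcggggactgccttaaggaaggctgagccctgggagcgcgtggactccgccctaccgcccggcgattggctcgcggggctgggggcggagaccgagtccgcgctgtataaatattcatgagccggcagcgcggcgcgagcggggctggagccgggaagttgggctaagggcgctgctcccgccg
DKK1, chr10:52314031-52314330, plus strand: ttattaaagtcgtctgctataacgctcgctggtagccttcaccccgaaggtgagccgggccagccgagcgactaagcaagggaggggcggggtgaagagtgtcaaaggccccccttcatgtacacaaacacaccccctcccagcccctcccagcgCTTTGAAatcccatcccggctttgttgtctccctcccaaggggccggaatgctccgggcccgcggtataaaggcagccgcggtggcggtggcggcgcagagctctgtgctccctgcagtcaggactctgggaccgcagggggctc
TNFRSF19, chr13:23570162-23570461, plus strand: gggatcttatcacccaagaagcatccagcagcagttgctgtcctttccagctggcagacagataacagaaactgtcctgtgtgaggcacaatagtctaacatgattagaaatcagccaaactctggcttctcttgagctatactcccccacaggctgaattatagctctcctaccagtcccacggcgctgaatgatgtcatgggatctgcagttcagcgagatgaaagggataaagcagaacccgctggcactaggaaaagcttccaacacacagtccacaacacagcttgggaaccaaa
TNFRSF19, chr13:23579110-23579409, plus strand: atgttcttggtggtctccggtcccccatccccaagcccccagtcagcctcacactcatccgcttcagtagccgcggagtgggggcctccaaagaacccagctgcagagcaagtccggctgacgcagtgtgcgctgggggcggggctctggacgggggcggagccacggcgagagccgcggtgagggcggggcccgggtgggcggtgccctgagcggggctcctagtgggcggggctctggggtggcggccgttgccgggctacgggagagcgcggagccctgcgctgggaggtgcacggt
The match in the DKK1 window, CTTTGAA on the gene's strand with its first base at -95 from the start, was the only one in the 36 windows of 28 Wnt pathway genes (2.78%). Of all 35116 RefSeq windows of this length, 6.86% held at least 1 of the words. A match is a stretch of letters and not a measured binding site.

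By line, shPTK7 cells had 4 of the 41 genes called lower (9.76%), against 1.08% of all 20045 genes with a probe (217 genes), and none higher, against 0.808%. The 4 genes were SFRP1, TNFRSF19, WNT5A and DKK1. Their log2 folds over HT1080 cells were -2.22, -1.39, -1.37 and -1.15. The median over the 32 Wnt pathway genes with a fold was -0.13, and over all genes with a fold 0.02. The genes followed were chosen with earlier results of these data known, so the shares here and below describe this list only. More of the list than of all genes was detected (80.5% against 67.7%).

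PTK7 cells had the most calls, 7 of 41 lower (17.1%), against 2.38% of all genes, and none higher, against 1.67%. The genes were DKK3, TNFRSF19, AXIN2, FZD8, FZD3, WNT5A and ZNRF3, an antagonist, a ligand, a pair of receptors and 3 targets. The median log2 fold was -0.34 over 30 Wnt pathway genes and 0.00 over all genes.

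Chz cells had calls in both directions. WNT5A and FZD8 were higher, 2 of 41 genes (4.88%) against 1.39% of all genes, and DKK1 and AXIN2 were lower, 2 of 41 against 1.2%. The median log2 fold was -0.03, against -0.01 over all genes.

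In sPTK7 cells FZD3, SFRP1, DKK1 and TNFRSF19 were lower, 4 of 41 genes against 1.25% of all genes, and no gene was higher, against 1.25%. In cPTK7/622-1070 cells WNT5A and SFRP1 were lower, 2 of 41 against 0.514% of all genes, and none was higher, against 0.474%. In cPTK7/726-1070 cells WNT5A, SFRP1 and ZNRF3 were lower, 3 of 41 (7.32%) against 1.06% of all genes, and none was higher, against 1.01%. The median log2 folds of these lines were -0.21, -0.08 and -0.13, in that order, against -0.02, 0.00 and -0.01 over all genes.

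**Figure D3:**
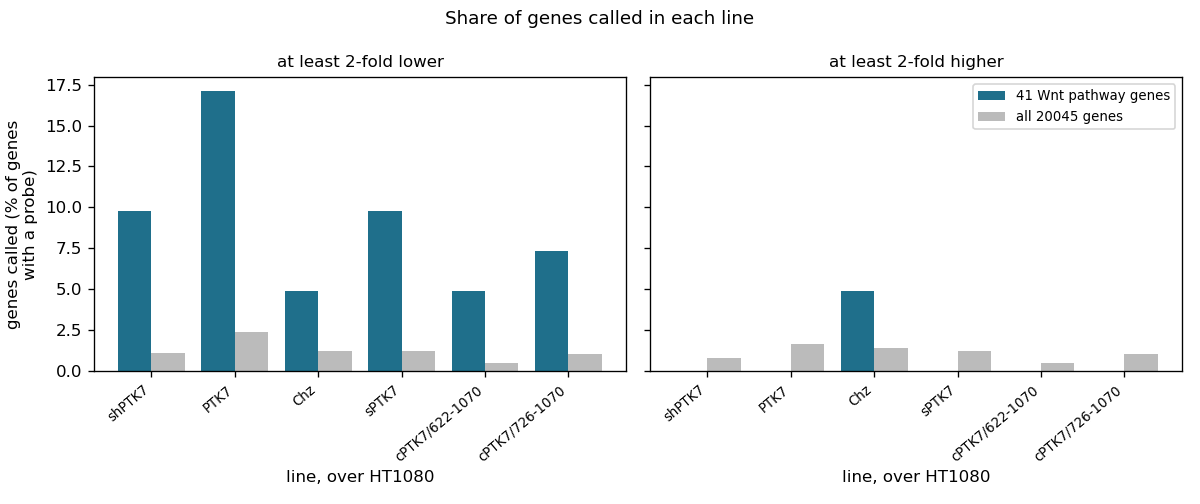
Percent of genes called at least 2-fold lower (left) and higher (right) than HT1080 cells in each line, for the 41 Wnt pathway genes with a probe (blue) and all 20045 genes with a probe (grey). The blue bars for lower calls run from 4.88% in Chz and cPTK7/622-1070 cells to 17.1% in PTK7 cells, and only Chz cells have a blue bar for higher calls. The 41 genes were chosen with earlier results of these data known.

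WNT5A was called in 5 lines, SFRP1 in 4 and DKK1 and TNFRSF19 in 3. Of the 33 detected Wnt pathway genes 8 were called in at least 2 lines (24.2%), against 4.45% of the 13580 detected genes. Since each line was set against the same HT1080 array, a high or low signal on that array enters every one of these calls. The range over all 7 arrays, which does not single out HT1080 cells, reached 2-fold for 13 of the 33 genes (39.4%), against 26.1% of all detected genes, with a median range of 1.8-fold and 1.64-fold. The 4 genes outside the 9 called ones were WNT7B, WNT10B, FZD6 and CCND1.

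Full-length PTK7 and the Chuzhoi mutant were also set against each other, without HT1080 cells. In Chz over PTK7 cells 6 of the 41 genes were higher (14.6%), against 3.62% of all genes, and 2 were lower (4.88%), against 2.63%. The largest differences were WNT5A, with 647 in Chz and 85.8 in PTK7 cells (7.54-fold higher), DKK1, with 85.6 and 479 (5.59-fold lower), and FZD8, with 619 and 119 (5.20-fold higher). TNFRSF19 was 4.63-fold, DKK3 3.85-fold, FZD6 2.24-fold and SFRP1 2.06-fold higher in Chz cells, and WNT10B was at least 2.42-fold lower. Chz and PTK7 cells were the highest and the lowest of the 7 arrays for FZD6, FZD8 and TNFRSF19, and the lowest and the highest for DKK1 and, within 2-fold, for CTNNBIP1. A dimmer CTNNBIP1 probe, detected only in Chz (57.4) and HT1080 cells (71.9), did not show this order. WNT10B was also highest in PTK7 cells, but it was undetected in Chz cells and in both lines with C-terminal fragments, which have no order among them.

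The summed signal of the 14 mesenchymal markers was also highest in Chz cells (85546) and lowest in PTK7 cells (55195), with 81549 in HT1080 cells. Such a sum weighs bright probes most, here VIM (56199 in Chz and 45678 in PTK7 cells), SPARC (15199 and 3695) and CDH2 (12005 and 4588). Of the dimmer markers detected in both lines, COL6A1 (1016 and 579), S100A4 (258 and 152) and FN1 (139 and 70.9) went the same way. COL5A1 (95.7 and 138) went the other. COL6A2 (321) and PDGFRB (91.8) were detected in Chz and not in PTK7 cells. Epithelial markers summed to 2960.0 in Chz and 3667 in PTK7 cells, leukocyte and blood markers to 317 and 393, and endothelial markers to 249 and 207. All these sums include undetected probes. The part of these markers in the Wnt pathway differences was not tested.

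**Figure D4:**
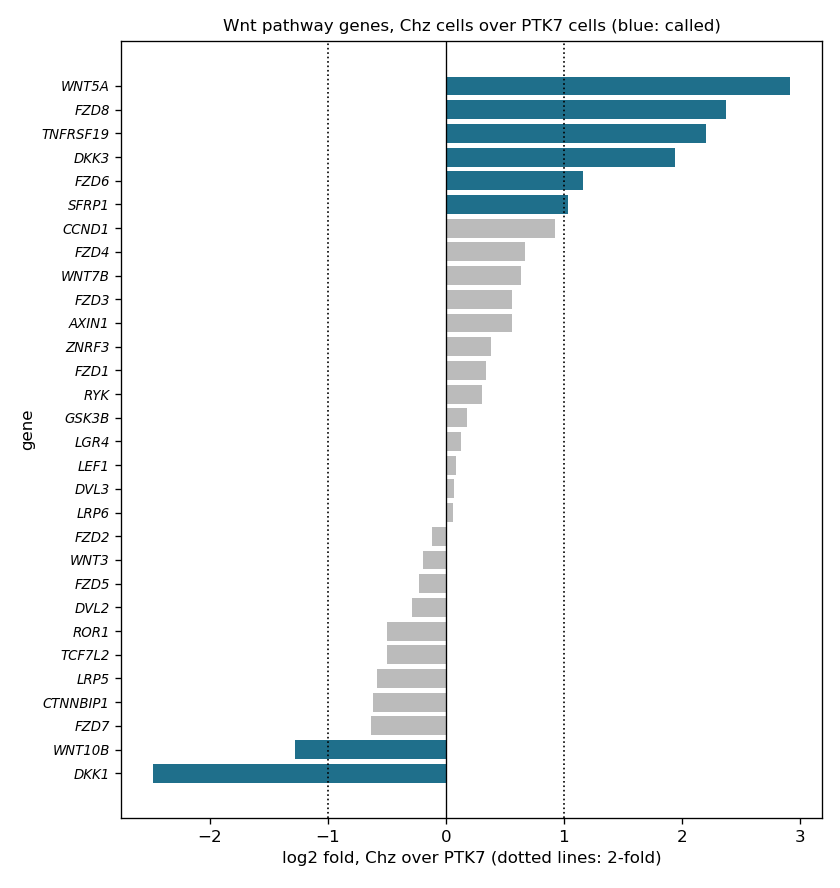
Log2 fold of Chz over PTK7 cells for each of the 30 Wnt pathway genes with a fold, 1 array per line. Bars to the right are higher in Chz cells, blue bars are called and the dotted lines mark 2-fold. WNT5A (log2 fold 2.92) and FZD8 (2.38) head the higher genes and DKK1 (-2.48) has the longest bar to the left.

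The line transfected with full-length PTK7 was set against the silenced line as well. In PTK7 over shPTK7 cells DKK1 (479 and 116, 4.12-fold) and SFRP1 (159.6 and 29.0, at least 2.97-fold) were higher, 2 of 41 genes against 2.19% of all genes. DKK3 (1166 and 5054, 4.33-fold), AXIN2 (46.6 and 198, at least 3.25-fold), FZD8 (119 and 300.4, 2.52-fold) and ZNRF3 (144 and 357, 2.47-fold) were lower, 4 of 41 against 2.73%. WNT5A, at 85.8 and 77.6, was low in both lines.

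Further genes of the pathway were taken from fixed lists of ligands, receptors, agonists, antagonists, transducers, nuclear factors, targets and polarity genes. Of 131 with a probe, 100 were detected on at least 1 array. In shPTK7 cells 3 were higher and 1 lower than in HT1080 cells, in PTK7 cells 4 and 4, in Chz cells 3 and 1, in sPTK7 cells 3 and 4, in cPTK7/622-1070 cells 0 and 2, and in cPTK7/726-1070 cells 2 and 4. Neither share passed 3.05% in any line, against 0.474% to 1.67% of all genes for higher and 0.514% to 2.38% for lower calls. No other Wnt ligand, ligand-processing gene or secreted antagonist of these lists was called over HT1080 cells.

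AMER1, which binds APC and restrains β-catenin, was detected in PTK7 (569.6), Chz (517) and sPTK7 cells (417) and not in shPTK7 (43.9), cPTK7/622-1070 (37.7), cPTK7/726-1070 (31.2) or HT1080 cells (33.9). It was at least 10.2-fold, 9.29-fold and 7.49-fold higher in these lines than in HT1080 cells. RSPO3, a secreted R-spondin that strengthens Wnt signaling, gave 148 in shPTK7, 115 in cPTK7/726-1070 and 56.1 in HT1080 cells and was not detected in the other 4 lines.

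ID2, a reported target of β-catenin, gave 302 in shPTK7, 394 in PTK7, 170.0 in Chz, 336 in sPTK7, 244 in cPTK7/622-1070, 342 in cPTK7/726-1070 and 147 in HT1080 cells, with calls in shPTK7, PTK7, sPTK7 and cPTK7/726-1070 cells. In the polarity branch VANGL2, a core membrane protein of planar cell polarity, was not detected in PTK7 (32.8) and sPTK7 cells (38.8), against 163 in HT1080 cells, and was detected at 104 to 169 in the other 4 lines. CAMK2D, a kinase that answers to calcium, was 2.28-fold lower in shPTK7, 2.32-fold lower in PTK7 and 2.18-fold lower in cPTK7/726-1070 cells. Its signals there, 74.1 to 79.0 against 172 in HT1080 cells, lay near the floors (53.8 to 60.9). No alternative processing is given here for the genes of these further lists.

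Most of the called Wnt pathway genes lay near the array background, and the background correction set the size of their folds. Without it, 4 of the 24 calls over HT1080 cells remained: DKK3 in PTK7 cells (4.77-fold lower), WNT5A in Chz cells (2.31-fold higher), TNFRSF19 in PTK7 cells (2.06-fold lower) and SFRP1 in shPTK7 cells (2.04-fold lower). The other 20 kept their direction and lay between 1.44-fold and 1.97-fold. The non-normalized signals of WNT5A were 907 in Chz and 343 in HT1080 cells and those of AXIN2 182 in PTK7 and 304 in HT1080 cells, where the median probe of an array lay at 174 to 185.

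**Figure D5:**
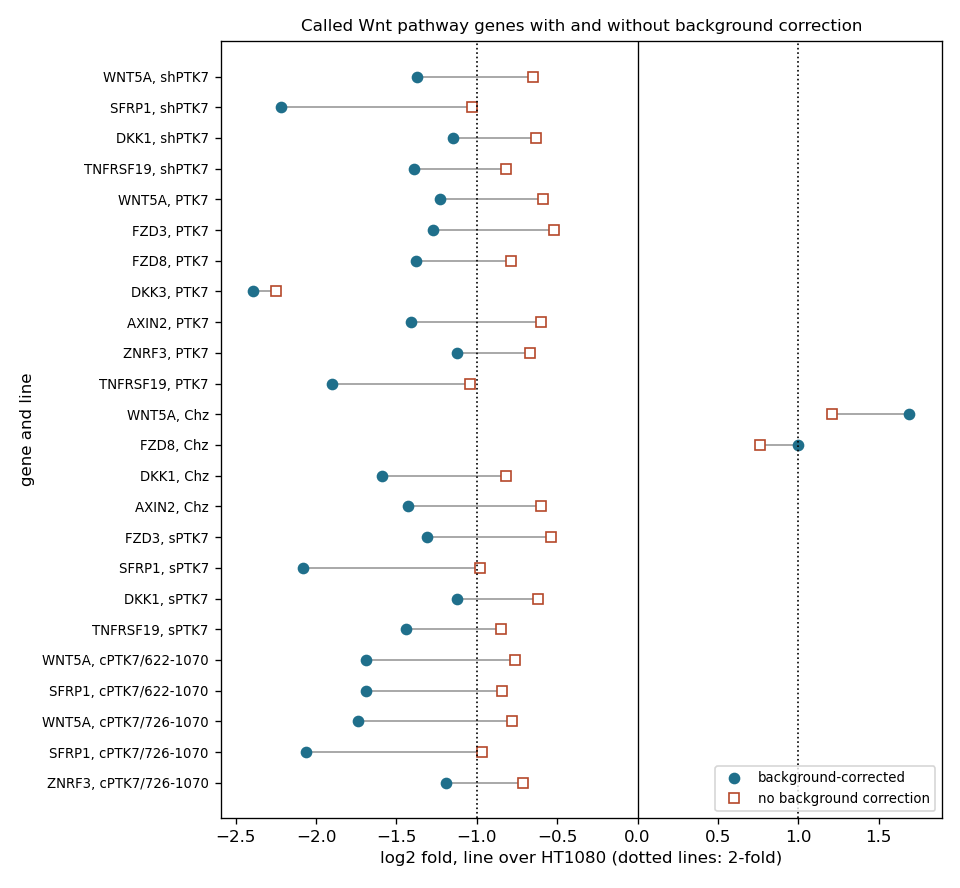
Log2 fold of line over HT1080 cells for each of the 24 calls, with background correction (filled circles) and without it (open squares), and dotted lines at 2-fold. Each square lies nearer to 0 than its circle and on the same side of it, and 4 squares lie past a dotted line.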

How the data were processed

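Total RNA of each line was hybridized by the authors to Illumina HumanHT-12 v4 BeadChips, and the deposited non-normalized file gives, for 47230 probes, an intensity (mean bead signal, not normalized between arrays) and a detection p value. A second deposited table, with intensities normalized by the authors with a method the sources used here do not name, served as an alternative. Background correction used the normal-exponential model of limma 3.58.1 (R 4.3.3), estimating the background through the detection p values and adding an offset of 16, and was followed by quantile normalization and log2. The platform annotation gave 30112 probes with 1 gene symbol, 8 with several and 17110 with none. Folds, floors and calls are defined in the text. The Welch's t test of the methods was not run, because 1 array per line gives no spread, so no p is given, and precision is limited by the number of arrays. Values on all arrays are given for genes called over HT1080 cells or detected on some arrays only with a range of at least 2-fold; other named genes are given by range or were chosen after their values were seen (WNT7B, FZD6 and CCND1). Up to 3 called genes per list and line come from the further Wnt lists, and those named are part of these. The genes, lists and markers were chosen with earlier results of these data known. Alternatives were no background correction, 75th percentile scaling, no normalization, the authors' table, detection p under 0.01, no floor, other probe rules, the median of the 7 arrays as reference and a 1.5-fold cutoff. The processing was tested on simulated copies of the HT1080 array with added noise and planted changes. The planted changes were larger than the calls near 2-fold, and real differences between arrays were not simulated. Python 3.11.15, numpy 2.4.6, pandas 2.3.3 and matplotlib 3.10.9 were used for the rest.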

Additional observations from a re-analysis of the deposited data

How the results depend on the processing

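Counts of called Wnt pathway genes are given here for shPTK7, PTK7, Chz, sPTK7, cPTK7/622-1070 and lastly cPTK7/726-1070 over HT1080 cells, then Chz over PTK7 and PTK7 over shPTK7 cells, in this order. They were 4, 7, 4, 4, 2, 3, 8 and 6 as reported. Without background correction they were 1, 2, 1, 0, 0, 0, 5 and 2, against 0.489%, 1.49%, 0.778%, 0.773%, 0.16%, 0.559%, 2.6% and 1.7% of all genes with a probe, and with the values normalized by the authors they were 1, 2, 1, 1, 0, 1, 5 and 2. At a 1.5-fold cutoff they were 7, 13, 7, 8, 6, 10, 13 and 10. A lower cutoff admits more of all genes too. No share of all genes is given for this cutoff, for the authors' values or for the median below. Those counts therefore describe the list alone. With the median of the 7 arrays in place of HT1080 cells, shPTK7 and sPTK7 cells and both lines with C-terminal fragments had 0 calls, PTK7 cells had 6 (4 lower, 2 higher) and Chz cells 6 (2 lower, 4 higher), so that calls split into 6 lower and 6 higher over the lines, against 22 and 2 over HT1080 cells. Of the 24 calls over HT1080 cells, 4 were kept without background correction, 6 in the authors' values, 8 against the median and 21 at a detection p under 0.01. All 24 were kept under 75th percentile scaling, no normalization, no floor and both other probe rules, and none reversed under any of these. Background left in both signals narrows a fold by construction, and the causes of the other shifts were not tested. No paired analysis was possible because each line has 1 array, and for the same reason no replicate could be left out. Signals near the array background, as of WNT5A, SFRP1, FZD3 and AXIN2 in several lines, limit what these folds can resolve.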

Other observations

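Several further genes of the fixed Wnt lists were called over HT1080 cells. NRCAM, a neuronal adhesion molecule reported as a target of β-catenin, gave 316 in shPTK7 cells, where it was higher, 65.2 in PTK7, 44.5 (not detected) in Chz and 35.3 (not detected) in sPTK7 cells, where it was lower, and 147 in HT1080 cells. SOX4, a transcription factor, was 4.48-fold lower in sPTK7 cells (72.0) than in HT1080 cells (323). TCF4, a reported target of β-catenin and a gene other than TCF7L2, was 2.46-fold lower in PTK7 and 2.09-fold lower in cPTK7/622-1070 cells. In cPTK7/726-1070 cells TCF4 was at least 2.81-fold lower. ANKRD6, the human relative of the fly polarity protein Diego, was 2.54-fold higher in PTK7 and 2.94-fold higher in Chz cells. LGR5, a receptor of R-spondins, was detected at 131 in sPTK7 cells and was at least 2.35-fold higher there than in HT1080 cells.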
